A study of Mus musculus with 4 samples.

Results

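The H3K27me2 peaks of the paternal genome were compared between Ezh2m+/p+ and Ezh2m-/p+ zygotes. All peaks of the paternal lists of both genotypes were taken, 40686 of the 56036 peaks that the parental lists of the study hold, and each was called shared where it overlapped a paternal peak of the other genotype by at least 1 bp and specific where it did not. Specific therefore means without a listed peak: the Ezh2m-/p+ list skips 8435 peak numbers and the Ezh2m+/p+ list 9240. Numbers follow position, and at 41.2% of 6036 specific Ezh2m+/p+ and 33.8% of 12337 specific Ezh2m-/p+ peaks with a listed peak of the other list on both sides no number was skipped between these, so that no unlisted peak lay there. At the others, 58.8% and 66.2%, at least 1 number was skipped, and whether that peak lay at the specific one was not tested. Over all neighbouring peaks, a number was skipped in 24.8% of 22803 pairs of the Ezh2m-/p+ list. In the Ezh2m+/p+ list it was 30.9% of 17843 pairs. These pairs were not matched for the length of the gap. Eggs of C57BL/6J mothers were fertilized in vitro by PWK/PhJ sperm, and the zygotes were collected at PN5, the last pronuclear stage, without polar bodies. Mothers of the Ezh2m+/p+ group carried Ezh2 alleles with exon 4 flanked by loxP sites, and mothers of the Ezh2m-/p+ group carried the same alleles and Gdf9-Cre, a Cre driven by an oocyte promoter. Each group was 1 pool of 300 zygotes, from which 1 H3K27me2 library and 1 input library were made, so that every difference between the genotypes is a difference between 2 libraries, no replicate error exists and no test was made. The sperm brought a wild-type Ezh2 allele into both groups. Peak lists carry no reads over exon 4 and cannot show its loss, so that each direction rests on the labels of the lists. These labels are in doubt. The study gives the same peak numbers under the same genotypes, but the shares of annotation categories in each list are those that it shows for the other genotype. If the labels were exchanged, every direction between the genotypes given here would be the reverse.

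Methyl groups on lysine 27 of histone H3 are written by PRC2, in which EZH1 or EZH2 is the catalytic subunit and EED and SUZ12 are essential partners. H3K27me2 is the intermediate on the way to H3K27me3, the mark of silenced developmental genes, and it covers broad stretches of chromatin in many cell types. Sperm DNA is packed largely with protamines, and after fertilization the paternal genome receives maternal histones, so that most of its histone marks are set anew.

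The Ezh2m-/p+ paternal list was longer and its peaks were wider than those of the Ezh2m+/p+ list. It held 22823 peaks over 66.8 Mb, against 17863 peaks over 42.8 Mb in the Ezh2m+/p+ list, 1.56 times the covered sequence. In the Ezh2m+/p+ list 11807 peaks were shared, 66.1% (65.4 to 66.8%, a 95% Wilson interval), and in the Ezh2m-/p+ list 10430, 45.7% (45.1 to 46.3%). These intervals cover the sampling of peaks only, and neighbouring peaks are not independent. In base pairs, 28.3 Mb lay in both lists, 66.1% of the sequence of the Ezh2m+/p+ list and 42.4% of that of the Ezh2m-/p+ list, while 14.5 Mb lay in the Ezh2m+/p+ list only and 38.5 Mb in the Ezh2m-/p+ list only. Reads of the paternal genome covered more of every chromosome in the Ezh2m-/p+ library. The ratio of the authors' coverage values, Ezh2m-/p+ over Ezh2m+/p+, ran from 1.36 to 1.68 over 20 chromosomes with a median of 1.47. The part of this difference in coverage in the number and width of the peaks was not tested, and the files give no read totals for the paternal genome. By the totals that the study gives for whole libraries, the Ezh2m-/p+ library was the shallower one, which is the opposite order to that of the coverage. When the Ezh2m-/p+ list was reduced to the 17863 peaks of largest fold, the shares were 52.4% in the Ezh2m+/p+ and 45.4% in the Ezh2m-/p+ list. When each overlap had to span 50% of both peaks, they were 31.4% and 24.6%.

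To show what kind of sequence the peaks hold, the 30 bases at the middle of 11 peaks are given below, read on the plus strand of GRCm38 (mm10) with every CpG in capitals. The first 5 are the middles of the stretches that both lists hold in promoter peaks, for the genes where the lower fold of the pair was largest.
Usp21, chr1:171285786-171285815: accaagtccccatttactcCGctgccaagc
Olfr550, chr7:102578886-102578915: tctgcattatgccaccatcctgcctcactc
Rslcan18, chr13:67113286-67113315: aacctatagaaaaaacaataacattatatg
Acaa1a, chr9:119338686-119338715: cctaagtatttctggcagtcctcctctgtg
Gdf1, chr8:70330186-70330215: caggaggccagagtgggaCGccctctgCGg
The next 3 are the middles of the specific peaks of largest fold in the Ezh2m+/p+ list.
Dad1, chr14:54187186-54187215: agttcttggcacccttgtttttgcttatcc
Shroom3, chr5:92928886-92928915: tgtgtgtgtgtgtgtgtgttgagggggaaa
Adgrl2, chr3:148726286-148726315: gtatgagacacaacacaaaaccttctctca
The last 3 are the middles of the specific peaks of largest fold in the Ezh2m-/p+ list.
Rapgef4, chr2:72004686-72004715: gggggaatttagagcaggagacaaaagaag
Ifi203, chr1:173949886-173949915: ccaggcttattaaccttgttggtcttccta
Epas1, chr17:86659686-86659715: catctgaaactcttgggtttacagacactc
Of these, the Usp21 and Gdf1 stretches held a CpG, 1 and 2 in number. Over the whole peak, CpG density ran from 1.43 per kb in the Ifi203 peak to 48.4 per kb in the Gdf1 peak of the Ezh2m+/p+ list.

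The peaks of both lists were richer in G and C and poorer in repeats than the genome. The median GC content was 44.9% (95% interval of the median 44.8 to 45.0%) in shared and 44.1% (43.9 to 44.3%) in specific Ezh2m+/p+ peaks, and 44.6% (44.5 to 44.7%) in shared and 43.4% (43.2 to 43.5%) in specific Ezh2m-/p+ peaks, where chromosomes 1 to 19 and X as a whole had 41.8%. CpG density had medians of 9.01 and 8.01 per kb in shared and specific Ezh2m+/p+ peaks and of 8.89 and 7.69 per kb in the Ezh2m-/p+ list, against 8.34 per kb in the genome. A median of 20.8% of the bases of shared and 21.1% of specific Ezh2m+/p+ peaks were soft-masked repeats, and 21.5% of both kinds in the Ezh2m-/p+ list, against 34.3% of the genome. Only reads that map uniquely and cover a variant between the strains entered the lists, and the part of this in the repeat share was not tested. By repeat content, the shares of shared peaks were highest at 20 to 40% repeats, 68.8% of 6702 Ezh2m+/p+ and 49.6% of 8919 Ezh2m-/p+ peaks. They were lowest at 80 to 100% repeats, 43.5% of 209 and 20% of 270. Among ranges of GC content, the shares were lowest in the peaks poorest in GC. Of the peaks with at most 36% GC, 42.5% of 510 in the Ezh2m+/p+ list and 22.8% of 821 in the Ezh2m-/p+ list were shared. Above 48% GC the shares were 69.1% of 4611 and 52.1% of 4949.

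Shared peaks were wider than specific peaks in both lists. The median listed width was 1999 bp for shared and 1399 bp for specific peaks of the Ezh2m+/p+ list, and 2799 and 1599 bp in the Ezh2m-/p+ list. The quartiles of the specific peaks lay between 1199 and 1799 bp in the Ezh2m+/p+ and between 1199 and 2199 bp in the Ezh2m-/p+ list, so the specific peaks of both genotypes crowded near the lower limit that the authors set on length. Peaks of 999 bp, the shortest listed, made up 21.4% of the specific and 8.97% of the shared Ezh2m+/p+ peaks, and 14.9% and 4.43% of those of the Ezh2m-/p+ list. At the other end, 268 Ezh2m+/p+ and 668 Ezh2m-/p+ peaks were at least 10 kb wide. All of the Ezh2m-/p+ peaks of this width and 267 of the Ezh2m+/p+ peaks were shared. A wide peak has more sequence in which an overlap can fall, and the share by width below is read with that in mind.

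**Figure D1:**
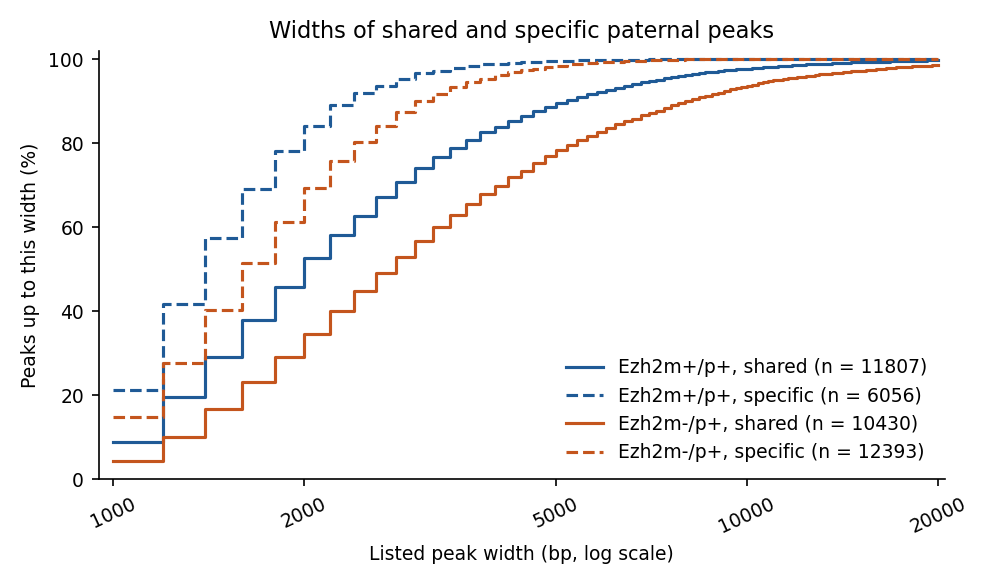
Cumulative share of peaks (y axis, %) up to a listed width in bp (x axis, log scale, shown to 20000 bp) for shared (solid) and specific (dashed) paternal peaks of the Ezh2m+/p+ (blue) and Ezh2m-/p+ (orange) lists. The curve of the shared Ezh2m-/p+ peaks, with a median of 2799 bp, lies farthest to the right, and that of the specific Ezh2m+/p+ peaks, with a median of 1399 bp, farthest to the left.

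The share of shared peaks increased with width in both lists. In the Ezh2m+/p+ list it was 45.0% (43.0 to 47.0%) of 2353 peaks of 999 bp and 63.3% (61.8 to 64.7%) of 4406 peaks of 1599 to 1999 bp. It was 91.1% (89.8 to 92.3%) of 2020 peaks of 3199 to 4999 bp. In the Ezh2m-/p+ list the same widths gave 20.01% (18.4 to 21.7%) of 2309, 34.2% (33.0 to 35.5%) of 5466 and 68.3% (66.7 to 69.9%) of 3298 peaks. At each width up to 10 kb the share was therefore lower in the Ezh2m-/p+ list, which is also the longer list. Shared peaks were also more frequent where peaks were dense. Of the Ezh2m+/p+ peaks that stood alone in their window of 1 Mb, 36.9% (30.6 to 43.7%) of 206 were shared, against 78.5% (77.7 to 79.3%) of the 9625 in windows with 20 or more. The Ezh2m-/p+ shares were 22.1% (16.2 to 29.5%) of 149 and 54.0% (53.2 to 54.9%) of 13368.

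**Figure D2:**
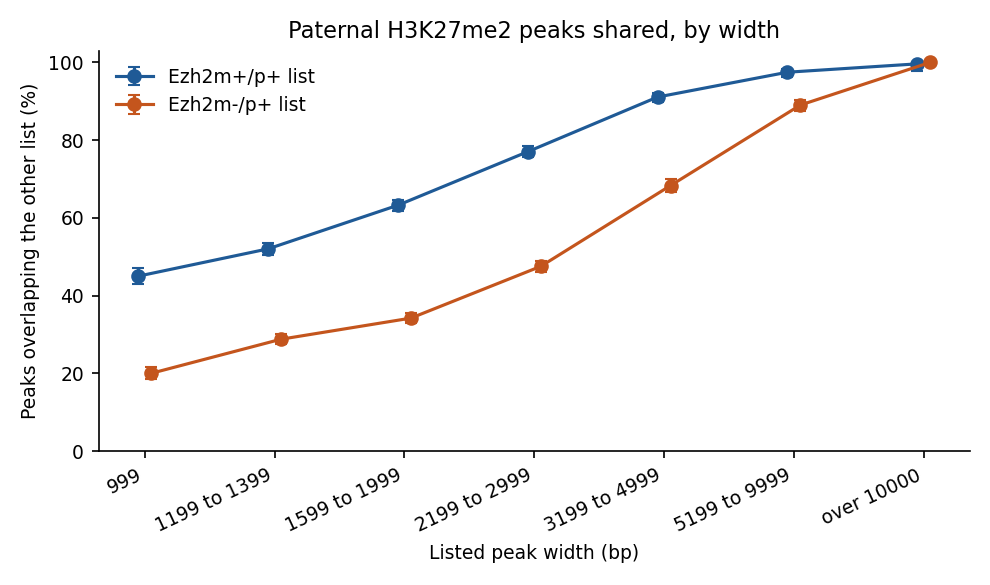
Share of paternal H3K27me2 peaks that overlap a peak of the other genotype (y axis, %) by listed width in bp (x axis) for the Ezh2m+/p+ (blue) and Ezh2m-/p+ (orange) lists, where bars are 95% Wilson intervals over peaks. Both lines climb, from 45.0% and 20.01% at 999 bp to 99.6% and 100% above 10000 bp.

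The fold, the ratio of H3K27me2 to input reads in a peak, took few values. The Ezh2m+/p+ list had 471 distinct folds and the Ezh2m-/p+ list 957. The most common Ezh2m+/p+ folds, 36.1, 48.1, 60.2 and 72.2, lay at equal steps, and the most common Ezh2m-/p+ folds were 63.0, 7.88, 78.8 and 9.85. The reads behind a step were not counted, and a large fold may rest on few reads. Peaks and pairs ranked or filtered by fold are read with that in mind. A fold of 36.1 alone was given to 3350 Ezh2m+/p+ peaks, 18.8% of the list, with a median width of 1199 bp, and 37.9% of them were shared. The most common fold of the Ezh2m-/p+ list, 63.0, was given to 2459 peaks with a median width of 1399 bp, of which 15.7% were shared. The share of shared peaks did not follow the fold in 1 direction. In the Ezh2m+/p+ list it was 86.4% for folds of 10 to 20, 47.1% for folds of 20 to 40 and 97.7% for the 346 peaks with folds of 162 to 518. In the Ezh2m-/p+ list it was 74.7% for folds of 20 to 40, 21.5% for folds of 40 to 80 and 68.1% for the 690 peaks with folds of 165 to 725. The lowest share of each list thus fell in the range that holds its most common fold, 36.1 or 63.0. Over the common Ezh2m+/p+ folds the share rose from 37.9% at 36.1 to 68.8% at 72.2, with median widths of 1199 and 1799 bp. At the Ezh2m-/p+ folds of 63.0 and 78.8 it was 15.7% and 22.9%.

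The distance from specific peaks to the nearest peak of the other list varied widely, and no other places were measured for comparison. The median distance from a specific Ezh2m+/p+ peak to the nearest Ezh2m-/p+ peak was 8001 bp (quartiles 2201 and 27601 bp), and 54.3% of the 6056 lay within 10 kb. For the 12393 specific Ezh2m-/p+ peaks the median distance to the nearest Ezh2m+/p+ peak was 12601 bp (3601 and 43401 bp), and 44.7% lay within 10 kb.

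The specific peaks of largest fold lay near genes of varied kinds. In the Ezh2m+/p+ list the largest fold, 217, belonged to a peak of 5599 bp at chr14:54184401-54189999, annotated to Dad1, a subunit of the enzyme that attaches N-glycans, and 601 bp from the nearest Ezh2m-/p+ peak. It was followed by peaks annotated to Shroom3, a regulator of apical constriction (fold 193, in the promoter at chr5:92926001-92931799), Adgrl2, an adhesion receptor of the latrophilin family (187), Uri1, a prefoldin-like protein (181), and Tex264, a receptor for autophagy of the endoplasmic reticulum (175). The widest specific Ezh2m+/p+ peaks were annotated to Nxpe4 (10999 bp, fold 8.46), Afap1, an actin-filament-associated protein (8799 bp, fold 15.9), and Dmtn, the actin bundling protein dematin (7599 bp, fold 10.5). The Nxpe4 peak lay 601 bp from an Ezh2m-/p+ peak.

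In the Ezh2m-/p+ list the specific peak of largest fold, 347, was 3399 bp wide at chr2:72003001-72006399 in the first intron of Rapgef4, an exchange factor activated by cyclic AMP. Ifi203, an interferon-activated gene, followed with a fold of 339, Epas1, which encodes the hypoxia-inducible factor HIF-2 alpha, and Cep350, a centrosomal protein, with 331 each, and Klf12, a zinc finger repressor, with 299. The Klf12 peak was 8599 bp wide, lay over the start site at chr14:100143401-100151999 and was 9401 bp from the nearest Ezh2m+/p+ peak. The Rapgef4, Epas1 and Cep350 peaks were each 801 bp from an Ezh2m+/p+ peak. The widest were annotated to Ptprd, a receptor tyrosine phosphatase of synapses (9799 bp, fold 16.4), Styk1, a kinase-like gene (8999 bp, fold 18.4), and the odorant receptor gene Olfr722 (8999 bp, fold 9.85). The list had no specific peak of 10 kb or more, whereas the Nxpe4 peak was the only one of that width in the Ezh2m+/p+ list.

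Of all 17843 pairs of neighbouring Ezh2m+/p+ peaks, 2210 (12.4%) were overlapped by the same Ezh2m-/p+ peak, and of 22803 pairs of neighbouring Ezh2m-/p+ peaks 833 (3.65%) by the same Ezh2m+/p+ peak. The overlaps linked the peaks of both lists into 9597 groups. In 7784 of them (81.1%) 1 peak of each list met, in 1085 several Ezh2m+/p+ peaks met 1 Ezh2m-/p+ peak, in 348 several Ezh2m-/p+ peaks met 1 Ezh2m+/p+ peak, and in 380 several met several. In all, 1569 Ezh2m-/p+ peaks (15.0% of the shared ones) overlapped 2 or more Ezh2m+/p+ peaks, and their median width was 7999 bp. The other way, 784 Ezh2m+/p+ peaks (6.64%) overlapped 2 or more Ezh2m-/p+ peaks, with a median width of 4799 bp. Overlaps with 5 or more peaks were seen in 50 Ezh2m-/p+ peaks and in 0 Ezh2m+/p+ peaks.

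The distance between neighbours went with this joining. Of 1101 neighbouring Ezh2m+/p+ peaks with a gap of at most 1000 bp, 62.9% (60.05 to 65.7%) were overlapped by 1 Ezh2m-/p+ peak, and of 2422 with a gap of 1000 to 2000 bp 41.8% (39.9 to 43.8%) were. For gaps of 2000 to 5000 bp the share was 15.1% (13.9 to 16.5%) of 2931, and for gaps of 5000 to 10000 bp 2.72% of 2244. In the reverse direction the shares were 24.8% (22.8 to 26.96%) of 1644, 11.96% (10.9 to 13.1%) of 3210, 1.09% of 3579 and 0.0660% of 3032. At gaps of 10000 to 20000 bp no neighbours were joined, 0 of 2082 Ezh2m+/p+ pairs, which allows a share of up to 0.144%, and 0 of 2794 Ezh2m-/p+ pairs, which allows up to 0.107%. The peak caller joins windows up to 600 bp apart, and the smallest gap between neighbours was 801 bp in both lists. Counted only where both neighbours were shared, the shares at gaps of at most 1000 bp were 74.4% of 932 Ezh2m+/p+ and 43.1% of 946 Ezh2m-/p+ pairs.

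**Figure D3:**
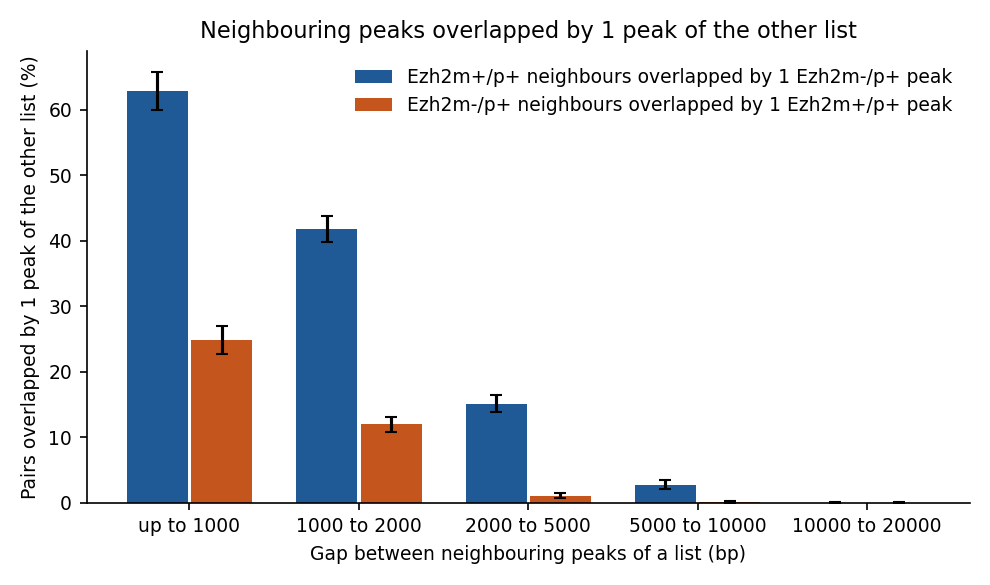
Share of neighbouring peaks of a list that 1 peak of the other list overlaps (y axis, %, starting at 0) by the gap between the neighbours in bp (x axis), for Ezh2m+/p+ neighbours (blue) and Ezh2m-/p+ neighbours (orange), where whiskers are 95% Wilson intervals over neighbour pairs. At gaps of up to 1000 bp the bars stand at 62.9% and 24.8%, and both are at 0 above 10000 bp.

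The Ezh2m-/p+ peak with the most Ezh2m+/p+ peaks lay over genes of secreted phospholipases A2, enzymes that release fatty acids from phospholipids. It spanned 101999 bp at chr4:138688201-138790199 with a fold of 18.98 and overlapped 10 Ezh2m+/p+ peaks of 1399 to 21799 bp, annotated to Pla2g2c, Pla2g2f and Pla2g2d. These covered 85.7% of it, and their folds ran from 10.2 to 144. A second peak on chromosome 4, 87399 bp wide at chr4:140311001-140398399 (fold 14.8), overlapped 7 Ezh2m+/p+ peaks of 2799 to 18599 bp annotated to Igsf21, a synaptic adhesion gene, and Gm13016, which covered 89.2% of it.

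On chromosome 14, the Ezh2m-/p+ peak annotated to Dad1 spanned 58799 bp at chr14:54193201-54251999 (fold 8.25) and overlapped 9 Ezh2m+/p+ peaks of 1199 to 6799 bp, which covered 51.7% of it. The peak at chr14:48165001-48214799, 49799 bp wide and annotated to Gm6498 (fold 9.61), also overlapped 9, annotated to Gm6498 and to Peli2, a ubiquitin ligase of innate immune signalling, with 71.5% covered. An Ezh2m-/p+ peak of 29999 bp upstream of Epas1, at chr17:86715001-86744999 (fold 12.5), overlapped 8 Ezh2m+/p+ peaks of 1399 to 4599 bp with folds of 6.02 to 25.6, which covered 72.0%. In the phospholipase and Gm13016 regions the Ezh2m+/p+ list thus covered most of the same sequence in pieces, and at Dad1 51.7% of it.

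The Ezh2m+/p+ peaks with the most overlaps met 4 Ezh2m-/p+ peaks each, and there were 4 such peaks. The 3 widest were annotated to Capzb, the beta subunit of the actin capping protein (27399 bp at chr4:139193201-139220599), Tnr, the brain matrix protein tenascin-R (14999 bp at chr1:159558601-159573599), and Pkd2, the calcium channel polycystin-2 (14199 bp at chr5:104482001-104496199). The Ezh2m-/p+ peaks covered 83.2%, 78.6% and 81.7% of them, and at Capzb 1 of the 4, of 28599 bp, was wider than the Ezh2m+/p+ peak.

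**Figure D4:**
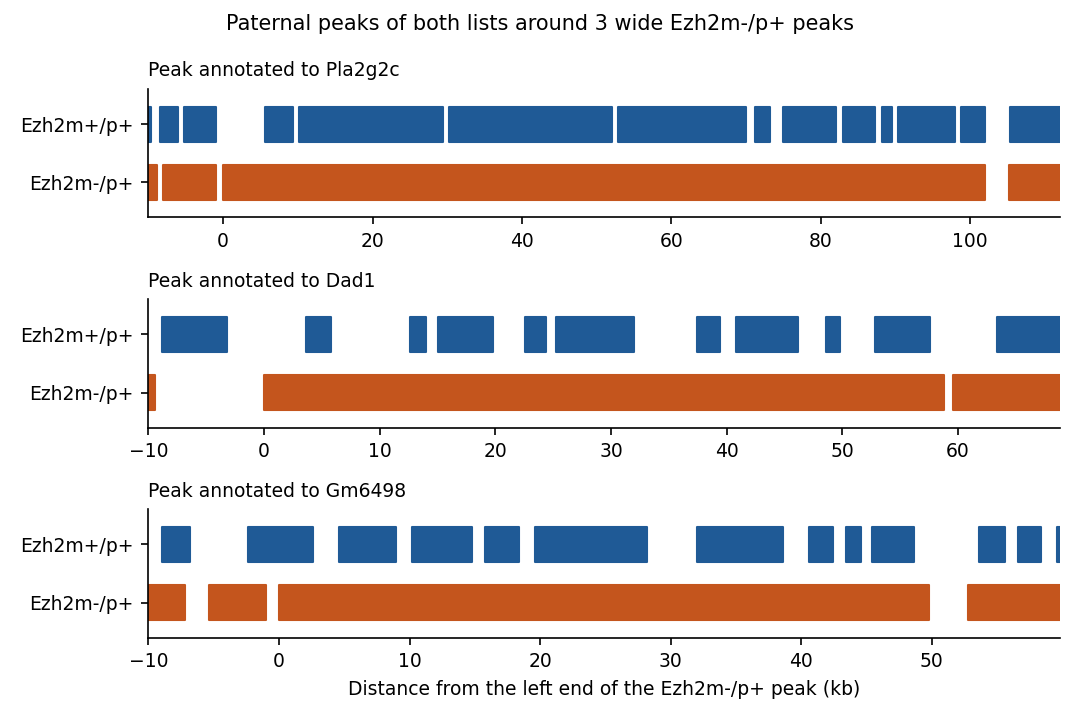
Paternal peaks of the Ezh2m+/p+ (blue) and Ezh2m-/p+ (orange) lists around the Ezh2m-/p+ peaks annotated to Pla2g2c, Dad1 and Gm6498, drawn to scale against the distance from the left end of that peak (x axis, kb), with 10 kb on each side. The long orange bars of 101999, 58799 and 49799 bp each face several blue bars, 10, 9 and 9 in number.

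In the 7784 pairs of 1 peak of each list, the Ezh2m-/p+ peak was more often the wider. The median width was 1799 bp for the Ezh2m+/p+ and 2399 bp for the Ezh2m-/p+ peaks of these pairs, and the ratio of widths had a median of 1.20 (95% interval of the median 1.20 to 1.22) with quartiles of 0.937 and 1.75. The Ezh2m-/p+ peak was wider in 63.3% of the pairs, the Ezh2m+/p+ peak in 26.0%, and 10.7% were of equal width. It was over 2 times wider in 19.99% of pairs, and the Ezh2m+/p+ peak was over 2 times wider in 3.83%. The Ezh2m-/p+ peak reached past both ends of its partner in 23.7% of pairs and lay inside both ends in 5.47%. On either side the median extension was 200 bp, which is 1 window of the peak caller. Fold went the other way, with a ratio of Ezh2m-/p+ to Ezh2m+/p+ of 0.709 in the median (0.655 to 0.748), but with quartiles of 0.205 and 1.75 it varied widely from pair to pair. Both peaks of a pair were annotated to the same gene in 99.2% and to the same category in 90.1% of pairs.

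The width ratio ran from 0.192 to 11.0. The largest belonged to an intergenic pair annotated to Pip5k1b, a lipid kinase gene, where a peak of 999 bp at chr19:24569001-24569999 (fold 36.1) faced an Ezh2m-/p+ peak of 10999 bp (fold 12.1). Pairs annotated to Gramd3, with 999 and 9199 bp, and 4930592C13Rik, with 999 and 8799 bp, came next. At the other end, an Ezh2m+/p+ peak of 5199 bp near Bod1, a gene of chromosome biorientation, held an Ezh2m-/p+ peak of 999 bp at chr11:31572401-31573399, and pairs at Ndst3, an enzyme of heparan sulfate synthesis (4999 and 999 bp), and Pappa2, a protease of insulin-like growth factor binding proteins (4199 and 999 bp), followed.

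Peaks at gene starts and in exons were shared slightly more often than those between genes. Of the peaks at promoters, up to 1 kb from the start of a gene, 73.2% (71.1 to 75.1%) of 1884 in the Ezh2m+/p+ list and 55.8% (53.9 to 57.8%) of 2494 in the Ezh2m-/p+ list were shared, and of the distal intergenic peaks 63.5% (62.4 to 64.6%) of 7186 and 42.7% (41.7 to 43.7%) of 9290. Peaks in introns other than the first stood close to the latter, at 62.9% of 3307 and 41.2% of 4073. The 5' UTR peaks had 78.3% of 129 and 63.3% of 169. Promoter peaks were also wider, with medians of 1999 and 2399 bp against 1599 and 1999 bp for distal intergenic peaks. Within width classes the gap between promoter and intergenic peaks varied. At 1199 to 1399 bp, 60.3% (55.2 to 65.3%) of 353 promoter and 49.6% (47.4 to 51.9%) of 1958 intergenic Ezh2m+/p+ peaks were shared, and at 1599 to 1999 bp 40% (35.8 to 44.4%) of 495 and 33.3% (31.4 to 35.2%) of 2366 Ezh2m-/p+ peaks. At 999 bp the order was the reverse, with 42.3% of 175 promoter and 44.7% of 980 intergenic Ezh2m+/p+ peaks and 15.9% of 220 and 21.3% of 944 Ezh2m-/p+ peaks. At 2199 to 2999 bp, 76.5% of 327 promoter and 76.6% of 1359 intergenic Ezh2m+/p+ peaks were shared, and 50.2% of 446 and 45.3% of 2106 Ezh2m-/p+ peaks.

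Among the promoter pairs, 728 in number with the same gene in both lists, Usp21, a deubiquitinase gene, had the largest lower fold. Its Ezh2m+/p+ peak was 2799 bp wide with a fold of 162 and its Ezh2m-/p+ peak 1399 bp wide with a fold of 173. Olfr550, an odorant receptor gene, had folds of 144 and 158 in peaks of 3999 and 1599 bp, and Rslcan18, a KRAB zinc finger gene, folds of 132 and 126 in peaks of 3799 and 3199 bp. At Acaa1a, a thiolase of peroxisomal fatty acid oxidation, both lists gave the same 2199 bp, chr9:119337601-119339799, with folds of 120 and 221. Gdf1, a ligand of the TGF-beta family, had peaks of 1199 and 1599 bp with folds of 138 and 118. The Gdf1 and Usp21 peaks were the richest in GC of these 5, at 63.5% and 52.5% in the Ezh2m+/p+ list.

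Of 26794 genes with a promoter window in the RefSeq table (GRCm38.p6, 250 bases before to 50 after the start), 576 had a start site in a peak of both lists, 251 in an Ezh2m+/p+ peak only and 615 in an Ezh2m-/p+ peak only. CpG content was compared between these windows. Counted as CG on the given strand, which reads the same on the other, at least 10 were found in 44.2% (40.5 to 47.9%) of the 677 windows in both lists, in 40.3% (34.9 to 45.9%) of the 303 in the Ezh2m+/p+ list only and in 48.9% (45.2 to 52.6%) of the 706 in the Ezh2m-/p+ list only. Among all 32619 windows the share was 43.8%, inside the first and second intervals and below the third.

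By gene, 6721 genes had a paternal peak in a list, each peak being assigned to 1 gene by the authors' annotation. Of these 4473 (66.6%) had a peak in both lists, 684 (10.2%) in the Ezh2m+/p+ list only and 1564 (23.3%) in the Ezh2m-/p+ list only. Of the genes with peaks in both lists, 3656 (81.7%) had a shared peak, and 75.4% had more peak sequence in the Ezh2m-/p+ list. The genes of 1 list mostly had a single peak, 85.2% of those of the Ezh2m+/p+ and 71.6% of those of the Ezh2m-/p+ list. Genes with many peaks were in both lists. A gene with 1 Ezh2m+/p+ peak had an Ezh2m-/p+ peak in 73.8% of 2221 cases, and the 319 genes with 10 or more all had one. In the other direction the share was 52.3% of 2350 genes with 1 peak, and all 419 with 10 or more. In 40 genes of the Ezh2m+/p+ list only and 18 of the Ezh2m-/p+ list only a peak did overlap the other list, but there the overlapping peak was assigned to another gene. With a fold over 10 required in both lists 1154 genes, and with lists of equal size 1091 genes, were in the Ezh2m+/p+ list only.

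The genes with the most shared peaks lay on chromosomes 1, 3 and 4. Rabgap1l, a regulator of Rab GTPases on chromosome 1, had 95 Ezh2m+/p+ peaks, 84 of them shared, and 89 Ezh2m-/p+ peaks, 63 of them shared. Rgs7, a regulator of G protein signalling, had 72 and 64 peaks (64 and 59 shared) and Ank2, an ankyrin that anchors membrane proteins, 80 and 66 (75 and 56 shared). All 3 had fewer peaks and more covered sequence in the Ezh2m-/p+ list, in Rabgap1l 385511 bp against 230105 bp. Adgrl2 had 77 and 99 peaks (63 and 55 shared), and Ptprd had 89 and 155 (52 and 48 shared), with 399245 bp against 167311 bp of peak sequence.

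Among genes with peaks in the Ezh2m-/p+ list only, Ptpn22, a tyrosine phosphatase of lymphocytes, had the most, 8 peaks with 17992 bp of sequence within chr3:103862001-103903199. Gabrg3, a subunit of GABA-A receptors, and Cops7a, a subunit of the COP9 signalosome, had 7 each, and Rorb, a retinoid-related nuclear receptor, and Rgmb, a co-receptor of bone morphogenetic proteins, 6 each. None of these peaks overlapped an Ezh2m+/p+ peak. In the Ezh2m+/p+ list only, Pla2g2d had 5 peaks and Ddrgk1, a gene of protein ufmylation, 3, but all 8 overlapped Ezh2m-/p+ peaks assigned to other genes. Farp1, with 4 peaks, and Stk24, a kinase, and 4932438H23Rik, with 3 each, had no overlap with the Ezh2m-/p+ list. Farp1 and Stk24 lie next to each other on chromosome 14.

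The share of genes with any paternal peak is read against protein-coding genes at large, of which 5723 of 21631 (26.5%) had one. Of 41 genes of Polycomb complexes and EHMT enzymes, 14 (34.1%) had a peak, 6 in both lists, 3 in the Ezh2m+/p+ list only and 5 in the Ezh2m-/p+ list only. The 6 in both are 42.9% (21.4 to 67.4%) of the 14, and over all genes with a peak 66.6% were in both lists, 10.2% in the Ezh2m+/p+ list only and 23.3% in the Ezh2m-/p+ list only. Of their 15 Ezh2m+/p+ peaks 11 (73.3%, 48.05 to 89.1%) and of their 25 Ezh2m-/p+ peaks 12 (48%, 30.03 to 66.5%) were shared, where all peaks gave 66.1% and 45.7%. Ezh2 itself had 1 peak in each list, 999 bp (fold 72.2) and 2799 bp (fold 22.7) wide, which overlapped in the intergenic sequence upstream of it, at chr6:47647201-47648199 and chr6:47647401-47650199. Kdm2b, a demethylase that brings PRC1 to CpG islands, had the most, 5 and 9, of which 4 and 5 were shared, among them a promoter peak at chr5:122919401-122920799 (fold 36.1) and chr5:122919401-122921199 (fold 13.8). Jarid2, a PRC2 cofactor, had 3 and 4 intergenic peaks, 3 of them shared in each list.

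Cbx6, a PRC1 subunit, had 1 peak in each list, 1199 and 4199 bp wide, which overlapped, and Cbx7, another, had an Ezh2m-/p+ peak only (fold 5.91). Pcgf5, also of PRC1, had a shared intergenic peak of 2399 and 5599 bp. Single Ezh2m+/p+ peaks with no Ezh2m-/p+ peak were listed at Suz12 (1199 bp, intergenic, upstream), Ring1 (2599 bp, intergenic) and in the promoter of Pcgf1 (1199 bp, chr6:83080201-83081399). Epop, Lcor and Asxl1 each had 1 specific Ezh2m-/p+ peak, and Zfp644, a partner of EHMT enzymes, had 3. These peaks in 1 list only were 999 to 2599 bp wide, and with 1 library per genotype a gain or loss cannot be told from variation between libraries.

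Canonical imprinted genes carry DNA methylation imprints. Of 46 such genes 14 (30.4%) had a peak, 8 in both lists and 3 in each list alone. The 8 are 57.1% (32.6 to 78.6%) of the 14, an interval that holds the 66.6% of all genes. Of 17 Ezh2m+/p+ peaks 7 (41.2%, 21.6 to 64.0%) and of 22 Ezh2m-/p+ peaks 7 (31.8%, 16.4 to 52.7%) were shared, where all peaks gave 66.1%, above the first interval, and 45.7%, inside the second. With a fold over 10 in both lists the shares were 29.4% (13.3 to 53.1%) and 40%, where all peaks gave 45.3% and 38.9%. Shared peaks lay at H13, Inpp5f, Slc22a3, Peg13, Trappc9 and Grb10, a growth suppressor. Those of Grb10, at chr11:11936201-11937799 (fold 144) and chr11:11936201-11937999 (fold 17.1), were in the promoter category. They lay 817 and 617 bp from an annotated start. The Ezh2m+/p+ peak at chr11:12110401-12111399 was placed at -71718 bp from another start of the gene. Snrpn, a splicing gene, had 1 Ezh2m+/p+ peak (1399 bp, fold 48.1), Plagl1, a zinc finger growth regulator, 1 upstream of its start, in the promoter category of 2 to 3 kb (1399 bp, fold 84.3), and Rasgrf1, a Ras exchange factor, 1 (1599 bp, fold 36.1), with no Ezh2m-/p+ peak. Mkrn3 and Usp29 had 1 and Blcap 2 Ezh2m-/p+ peaks only. At Kcnk9, a potassium channel gene, the Ezh2m+/p+ peak lay over the start site (1199 bp, fold 60.2) and the Ezh2m-/p+ peak at chr15:72654601-72656999, upstream of it (2399 bp, fold 6.90). Slc22a2 also had a peak in each list with no overlap.

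Genes imprinted by maternal H3K27me3, which are silenced on the maternal and expressed from the paternal allele, had shares above the 66.1% and 45.7% of all peaks. Of 16 genes 5 had a peak, all 5 in both lists, and 58 of their 63 Ezh2m+/p+ peaks (92.1%, 82.7 to 96.6%) and 45 of their 59 Ezh2m-/p+ peaks (76.3%, 64.0 to 85.3%) were shared. With a fold over 10 in both lists the shares were 65.96% (51.7 to 77.8%) and 51.3% (36.2 to 66.1%), and the second interval then held the 38.9% of all peaks. Nearly all belonged to Epas1 and Otx2, which lie in peak-rich regions. Epas1 had 35 Ezh2m+/p+ and 28 Ezh2m-/p+ peaks, 32 and 23 of them shared, with 110165 and 146572 bp of sequence. Otx2, a homeobox gene of the forebrain, had 25 and 26 peaks, 23 and 19 of them shared, with 64375 and 127974 bp. The Otx2 promoter held a peak of 1199 bp in both lists, at chr14:48673801-48674999 with a fold of 96.3 and at chr14:48674001-48675199 with a fold of 5.25. Runx1, Gab1 and Inhbb had 1 Ezh2m+/p+ peak each, all shared, at 96296, -17082 and 100449 bp from the start. The farthest peaks assigned to Epas1 and Otx2 lay at -126701 and -97382 bp, so that these shares describe wide regions around the genes.

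The share of shared peaks by gene class spread around the values of all peaks, 66.1% and 45.7%. It was at its highest for secreted phospholipase A2 genes, where all 23 Ezh2m+/p+ peaks (95% interval from 85.7%) and all 10 Ezh2m-/p+ peaks were shared, with median widths of 5199 and 9499 bp. Pla2g2c had 5 Ezh2m+/p+ peaks over 51395 bp and 2 Ezh2m-/p+ peaks over 108998 bp, and Pla2g5 and Pla2g2a had 5 and 3 peaks each. All of these lie in 1 cluster, so that the peaks are not independent. Of the 24 oocyte and maternal-effect genes 5 had peaks, among them Zp2, a zona pellucida gene (5 and 3 peaks), and Npm2, the egg chaperone nucleoplasmin (3 and 3 peaks), and 11 of 13 (84.6%, 57.8 to 95.7%) and 8 of 11 (72.7%, 43.4 to 90.3%) peaks were shared, intervals that held the values of all peaks, but 40% in each list with a fold over 10. None was listed at the 6 spermatid nuclear protein genes (protamines and transition proteins), too few genes to set beside the 26.5% of protein-coding genes.

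For developmental regulators the Ezh2m+/p+ intervals held the 66.1% of all peaks, but with lists of equal size that of ligand genes, 26.0 to 50.6%, lay below the 52.4% of all peaks. Homeobox, Pax, T-box and Gata genes had 71.6% (63.5 to 78.6%) of 134 Ezh2m+/p+ and 46.4% (39.0 to 54.0%) of 166 Ezh2m-/p+ peaks shared. At Pax7, a muscle and neural regulator, 20 Ezh2m+/p+ peaks, 18 of them shared, over 85980 bp stood against 12 Ezh2m-/p+ peaks, all shared, over 107588 bp. For Sox and forkhead genes the shares were 71.8% (60.5 to 81.0%) of 71 and 36.4% (28.0 to 45.9%) of 107, and Sox11, a neural regulator, had 16 peaks in the Ezh2m+/p+ and 32 in the Ezh2m-/p+ list. Ligand genes of the Wnt, Fgf, Bmp and Hedgehog families had 57.1% of 56 and 43.5% of 69. Wnt4, which acts in kidney and gonad, had 10 and 9 peaks over 69790 and 88391 bp, whereas Fgf12 had 3 and 4 peaks with no overlap.

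For genes of neurons and cell adhesion, the Ezh2m-/p+ intervals of synaptic adhesion, cadherin, glutamate and GABA receptor and axon guidance genes lay below the 45.7% of all peaks, and those of channel genes and of collagen, integrin and laminin genes held it. In the Ezh2m+/p+ list the intervals of cadherin, receptor and collagen genes lay below the 66.1% of all peaks. With a fold over 10 and with lists of equal size, the Ezh2m-/p+ interval of axon guidance genes and the Ezh2m+/p+ intervals of cadherin and receptor genes held the value of all peaks. For channel genes, intervals lay below all peaks in both lists with a fold over 10 (23.3 to 38.01% against 45.3%, and 21.4 to 36.3% against 38.9%) and in the Ezh2m+/p+ list with lists of equal size (35.999 to 50.2% against 52.4%). Synaptic adhesion genes had 200 Ezh2m+/p+ peaks, 64.0% (57.1 to 70.3%) of them shared, and 358 Ezh2m-/p+ peaks, 33.8% (29.1 to 38.8%) of them shared, 1.79 times as many peaks. Ptprd, with 89 and 155 peaks, and Cntn4, a contactin, with 22 and 44, were among them. Cadherin and protocadherin genes had 52.8% (44.1 to 61.4%) of 123 and 31.2% (25.0 to 38.2%) of 186, with Pcdh11x on chromosome X at 54 and 96 peaks. Glutamate and GABA receptor genes had 51.1% of 45 and 29.6% of 81, and axon guidance genes 60.9% of 110 and 37.1% of 159, where Ephb2, an ephrin receptor, had 26 and 20 peaks and Epha4 13 and 25. Collagen, integrin and laminin genes had 53.2% of 111 and 40.6% of 138, and channel genes 60.9% of 184 and 44.4% of 225, with Kcnh1 at 27 and 25.

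Among the large families, olfactory, vomeronasal and taste receptor genes had 61.3% (56.3 to 66.1%) of 377 and 43.6% (39.3 to 48.1%) of 486 peaks shared, zinc finger genes 62.6% (55.97 to 68.8%) of 214 and 39.3% (33.9 to 44.9%, below the 45.7% of all peaks) of 298, and solute carrier genes 69.3% of 261 and 49.4% of 326. The Ezh2m+/p+ interval of the receptor genes, below all peaks here, held the value of all peaks with a fold over 10 and with lists of equal size, the Ezh2m-/p+ interval of zinc finger genes held it with lists of equal size, and that of solute carrier genes lay above it with a fold over 10. In the receptor class Tas1r2, a sweet taste receptor subunit, had 14 and 16 peaks. Ribosomal protein genes had 46.4% (29.5 to 64.2%) of 28 and 32.4% (19.6 to 48.5%) of 37 peaks shared, where the second interval held the value of all peaks, and the first did with a fold over 10 and with lists of equal size. Histone genes had 47.8% (34.1 to 61.9%) of 46 and 28.4% (19.4 to 39.5%) of 74, mostly from H2ab1 with 31 and 51 peaks. Both were below all peaks, but with a fold over 10 both intervals, 27.7 to 55.6% and 18.5 to 40.8%, held the 45.3% and 38.9% of all peaks, and with lists of equal size the Ezh2m+/p+ interval, 28.3 to 55.7%, held the 52.4% of all peaks. Cytochrome P450 genes (59.1% of 22 and 40% of 30), keratin genes (76.0% of 25 and 59.4% of 32) and genes of the mitochondrial ribosome and complex I (62.2% of 37 and 46.7% of 45) had intervals that held the values of all peaks, except that with lists of equal size the Ezh2m-/p+ interval of keratin genes lay above it. Protein-coding genes had 66.99% and 46.4% and lncRNA genes 60.1% and 40.7% of their peaks shared.

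**Figure D5:**
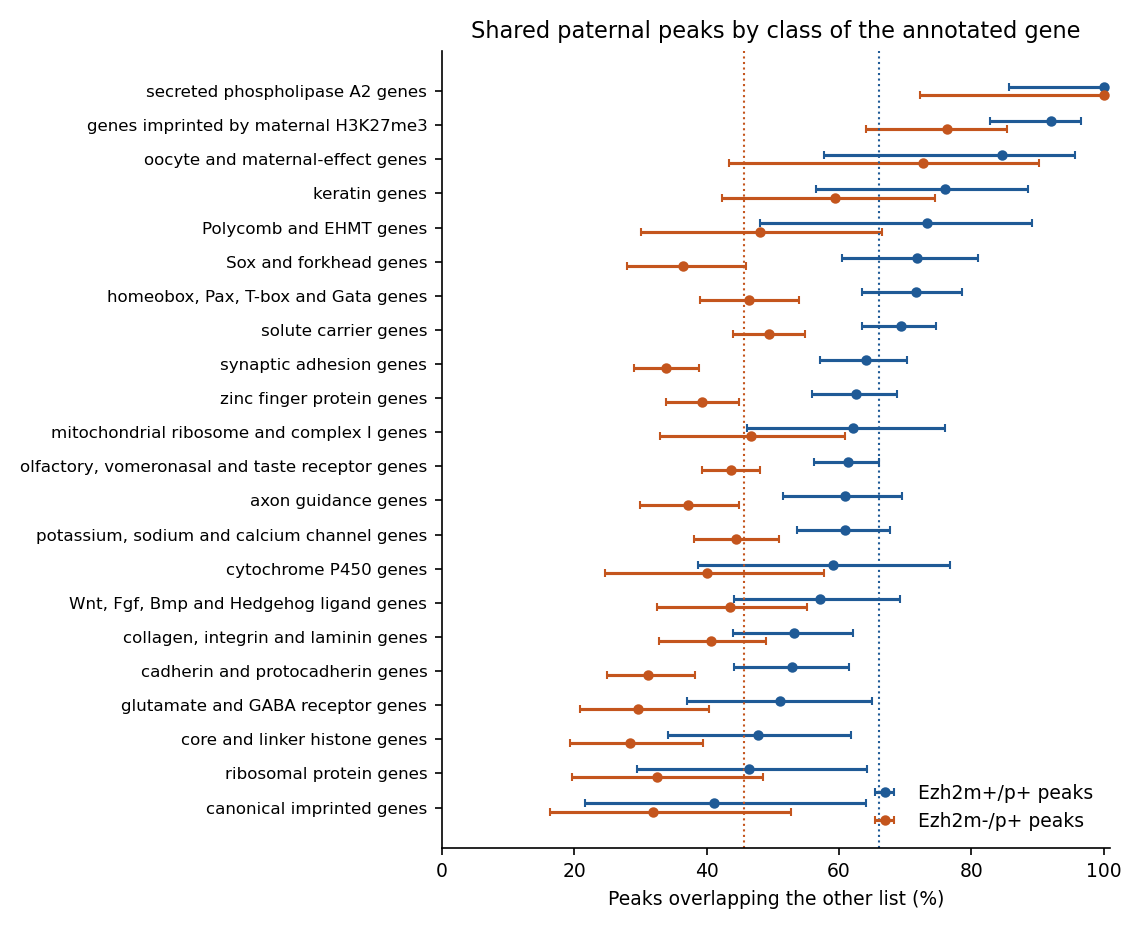
Share of paternal peaks that overlap the other list (x axis, %) by class of the gene that the annotation assigns (y axis, the 22 classes with at least 10 peaks in each list) for Ezh2m+/p+ (blue) and Ezh2m-/p+ (orange) peaks, where bars are 95% Wilson intervals over peaks and dotted lines mark all peaks, 66.1% and 45.7%. The Ezh2m+/p+ share is the higher in 21 of the 22 classes, and both are at 100% for secreted phospholipase A2 genes.

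The direction was the same on every chromosome. The Ezh2m-/p+ list had more peaks on all 20, from 1.04 times as many on chromosome 14 to 1.71 times on chromosome X, and a larger median width on all 20. Chromosome X also had the largest ratio of covered sequence, 2.34, and of coverage by reads, 1.68. The share of zygotes with a paternal X in each pool is not given, and its part in these ratios was not tested. The share of shared peaks was highest on chromosome 1, 81.4% of 2450 Ezh2m+/p+ and 62.4% of 2615 Ezh2m-/p+ peaks, and chromosomes 4 (75.5% and 56.8%) and 14 (73.6% and 56.9%) came next in both lists. It was lowest on chromosome 16, 45.0% of 209 and 28.0% of 321 peaks, where paternal reads covered 1.10% and 1.61% of the chromosome. The corresponding coverage was 3.47% and 5.05% on chromosome 1 and 4.03% and 5.47% on chromosome 4.

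Peaks of the maternal genome were rarely found at these places. Of the shared Ezh2m+/p+ paternal peaks 15 of 11807 (0.127%, 0.0770 to 0.210%) and of the specific ones 10 of 6056 (0.165%, 0.0897 to 0.304%) overlapped an Ezh2m+/p+ maternal peak. In the Ezh2m-/p+ zygotes the numbers were 13 of 10430 (0.125%, 0.0729 to 0.213%) and 28 of 12393 (0.226%, 0.156 to 0.326%).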

How the data were processed

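H3K27me2 was profiled by ULI-NChIP-seq, in which nucleosomes of few cells are precipitated from MNase-digested chromatin, with 1 H3K27me2 and 1 input library per genotype. Paired reads of 150 bp were trimmed by the authors (Trimmomatic 0.38), mapped on mm10 (Bowtie2), restricted to MAPQ over 30, freed of duplicates (Picard) and assigned to a parent by SNPsplit. The authors called peaks with SICER (window 200 bp, gap 600 bp) against the input, retained lengths over 1000 bp and folds over 5, and assigned each peak to its nearest gene by ChIPseeker, without pooling libraries. The deposited lists give this fold as a ratio of H3K27me2 to input reads, and the deposited coverage values are, per chromosome, the fraction under paternal reads, with no scaling to depth stated. Its 42 values of MII oocytes were not used.

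All 40686 peaks lay inside the GRCm38 chromosomes, and symbols were found for 6712 of 6721 gene identifiers. Overlaps, groups of overlapping peaks, gaps, base composition and shares were computed in Python 3.11.15 (numpy 2.4.6, pandas 2.3.3, scipy 1.17.1, matplotlib 3.10.9) and the overlap functions were tested on simulated data. Intervals are 95% Wilson intervals for shares and order-statistic intervals for medians. They cover the sampling of peaks only, and a count of 0 was given the limit of 3 counts. Depth per parental genome is not in the files, so the number of reads behind a fold is unknown, but the most common folds lay at coarse steps. The members, the 23 gene classes and the other lists were chosen with earlier results of these data known. Genes were named by a fixed rule: peaks overlapping the most peaks of the other list, specific peaks of largest fold and width, genes with the most peaks in 1 list or shared, pairs with extreme width ratios, promoter pairs of largest lower fold, all members of the Polycomb and imprinted classes with a peak, and up to 4 genes of each other class. Some genes that the rule names are not reported here. Runs of the analysis with other settings are given with the limits.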

Additional observations from a re-analysis of the deposited data

How the results depend on the processing

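With 1 library per genotype, no result has a replicate check, no library could be left out, and the labels of the lists decide every direction. No paired analysis was possible because each group has 1 library and the results come from no test. Depth per parental genome is not in the files, and its part in the lists was not tested. Of 46 values under other settings 14 stayed within the interval of the main value or, for counts, within 1.5 times of it. The Ezh2m+/p+ share was above the Ezh2m-/p+ share under all 6 settings that give both, the Ezh2m-/p+ list had the higher count of peaks overlapping several peaks under all 5, and the median width ratio was above 1 under all 6. The cause of the moves was not tested.

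With a reciprocal overlap of 50%, the shares were 31.4% for the Ezh2m+/p+ list and 24.6% for the Ezh2m-/p+ list, the width ratio was 1.11, and the median widths of specific peaks were 1599 and 1799 bp. This setting cannot pair a peak with several others, so the counts of peaks overlapping 2 or more were not computed. With a fold over 10 in both lists, the shares were 45.3% and 38.9%, 59.0% of genes had a peak in both lists, 799 Ezh2m-/p+ and 327 Ezh2m+/p+ peaks overlapped 2 or more peaks, and specific Ezh2m+/p+ peaks had a median of 1599 bp. With a length over 2000 bp, the shares were 74.2% and 40.8%, that of genes 50.5%, the counts 716 and 419, the width ratio 1.18 and the medians 2599 and 2799 bp. On autosomes only, the Ezh2m-/p+ share was 46.4%. With lists of equal size, the Ezh2m+/p+ share was 52.4%, that of genes 63.4%, the count of Ezh2m+/p+ peaks overlapping 2 or more 496, the width ratio 1.17 and the median of specific Ezh2m+/p+ peaks 1599 bp. With neighbours up to 2000 bp apart joined, the shares were 62.8% and 43.3%, the counts 997 and 249 and the width ratio 1.25. The share of genes was 59.7% without distal intergenic peaks and 59.6% when at least 2 peaks of a gene were required in a list. Genes in the Ezh2m+/p+ list only, 684 in the main comparison, numbered 1154 with a fold over 10, 1091 with lists of equal size and 394 with a length over 2000 bp. Of 88 class shares under a fold over 10 or lists of equal size, 53 stayed within their intervals. With lists of equal size, all 22 Ezh2m-/p+ class shares did, and 10 of the 22 Ezh2m+/p+ class shares.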
